A study of Homo sapiens with 10 samples.

Results

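The genes described here are 33 genes of homologous recombination, the Fanconi anemia pathway, mismatch repair and the replication checkpoint, with a pair of DNA glycosylases, taken by symbol from the count table of HepG2 cells exposed to tunicamycin. All 33 were found in the table of 32738 genes, and all 33 had enough counts to be among the 12733 genes tested. HepG2 is a human hepatoma line, and tunicamycin blocks N-linked glycosylation and so causes ER stress. Cells received growth medium with 2 µg/ml tunicamycin or growth medium alone for 17 h, with 5 libraries per condition made in experiments on separate days. The labels name no vehicle in the control medium, and both conditions share the same line, so that the comparison concerns 1 cell line. Each mRNA was read only near its 3′ end, and levels are not compared between genes here. Total counts were 4242538 to 4888292 per control library and 2234682 to 5029864 per tunicamycin library, the lowest being that of tunicamycin replicate 5. The 10 hepatocyte markers were all detected, with summed levels of 74911 to 94484 normalized counts in control and 61134 to 67588 in tunicamycin libraries (5 fell and 0 rose, at the threshold given below), while PTPRC, COL1A2 and DCN, which mark leukocytes and fibroblasts, were at 0 in all 10 libraries. The 10 markers of other cell types summed to 993 to 1161 normalized counts in control and 959 to 1368 in tunicamycin libraries, nearly all of it from EPCAM and ACTA2, and 1 of the 3 that could be tested, CD68, fell. Of 7 tested ER stress genes 6 rose and 1 fell. HSPA5, the ER chaperone BiP, rose by 2.97 on the log2 scale (standard error, SE, 0.08, adjusted p = 1.36e-14 by edgeR's quasi-likelihood test, the test used throughout). The gene that fell was XBP1, with a log2 fold change of -1.01 (SE 0.11, adjusted p = 6.91e-07).

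Homologous recombination repairs DNA double-strand breaks from the sister chromatid and therefore acts mainly in S and G2 phase. The Fanconi pathway removes crosslinks between DNA strands. Its core complex, with the conjugating enzyme UBE2T, attaches ubiquitin to FANCD2 and FANCI, and the lesion is then passed on to recombination proteins. Mismatch repair corrects replication errors, and the checkpoint kinases ATR and CHEK1, with CLSPN and TIMELESS at the fork, slow the cell cycle when replication stalls. Many genes of these pathways are transcribed mostly in late G1 and S phase, under E2F factors, so that their mRNA levels are known to be high in cycling cells.

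Most of the 33 genes were lower after tunicamycin. At an adjusted p under 0.05, 22 fell, 1 rose and 10 were not called. Of all tested genes, 34.2% were called in either direction, 16.6% lower and 17.6% higher. The median log2 fold change (tunicamycin over control) was -0.89 over the 33 genes and -0.0033 over all genes tested. Taken pair by pair, the median over the 33 genes was -0.76, -0.81, -0.96, -0.79 and -0.97 in replicates 1 to 5. In 21 of the 22 genes that fell, every tunicamycin library lay below every control library, which was the case for 11.9% of all tested genes. FANCL and those 21 genes were lower in 5 of 5 replicate pairs (20.4% of all tested genes), and PALB2 and ATR were higher in 5 of 5 (20.8%). Of the 22, 12 fell more than 2-fold by the estimate, as did 3.65% of all tested genes. BRIP1 and EXO1 fell most, to 24.2% and 24.8% of the control level. FANCG fell least among the called genes, to 68.7%. The only called increase was that of UBE2T. In bulk RNA, fewer cells in S phase and less of a transcript in each cell cannot be told apart. Of 24 genes chosen as a proliferation context (cyclins, mitotic kinases, MCM helicase subunits, S-phase enzymes and cell cycle transcription factors), 20 were also lower and 0 higher, with a median log2 fold change of -0.84 and summed levels of 17546 to 20604 normalized counts in control and 9211 to 11069 in tunicamycin libraries. The part of this shift in the changes below was not tested.

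**Figure D1:**
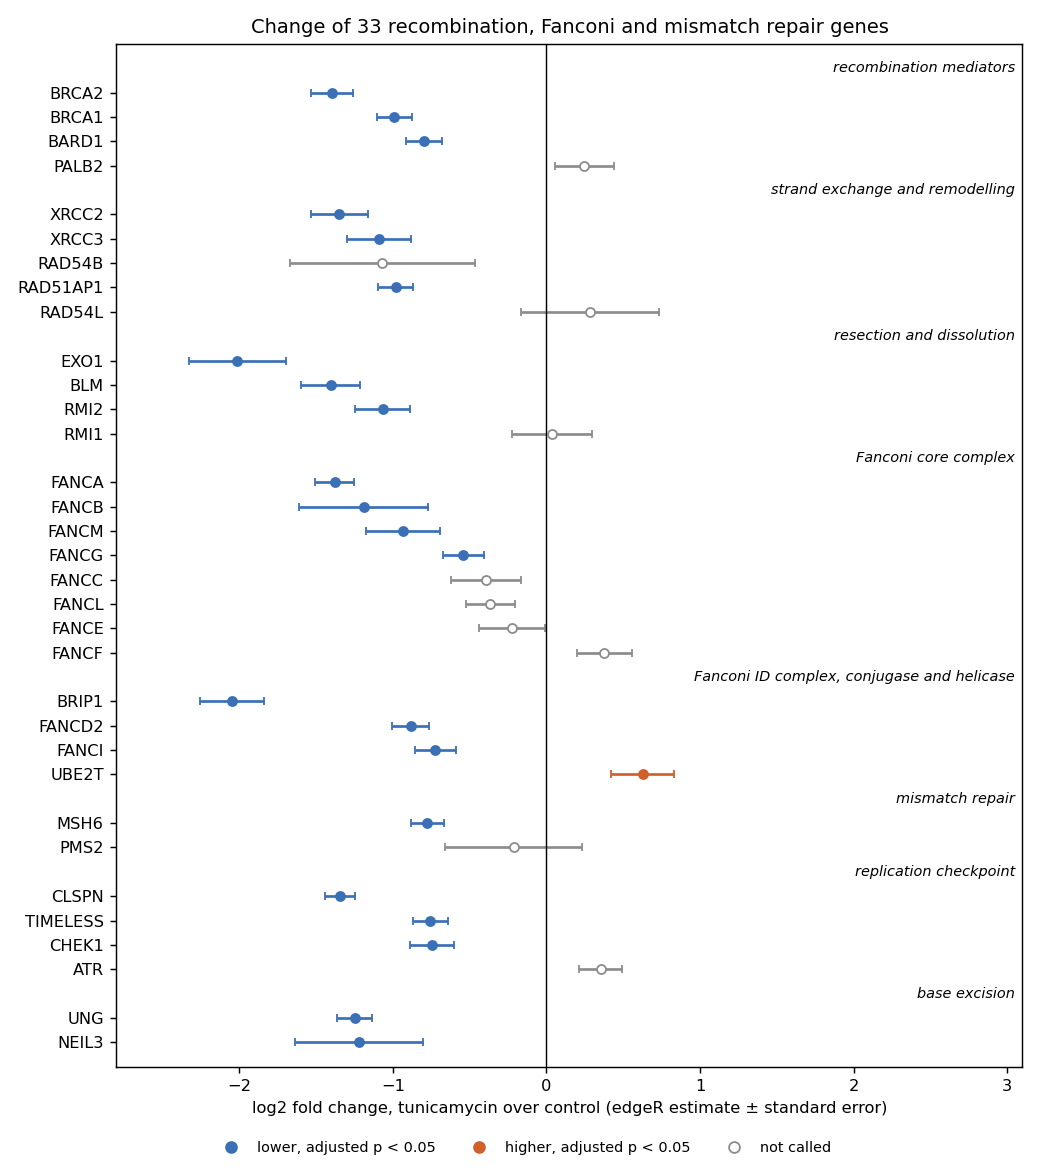
Log2 fold change of each of the 33 genes, tunicamycin over control, as estimated by edgeR from 5 libraries per condition, with bars for the standard error and genes grouped by role. Blue points are genes called lower, the orange point is the gene called higher (UBE2T) and open points were not called; 22 points are blue, with BRIP1 and EXO1 farthest to the left.

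The recombination mediators place the strand-exchange recombinase on resected DNA. BRCA1, a ubiquitin ligase subunit that promotes resection and recruits PALB2, had 318, 319, 318, 269.7 and 309 normalized counts in the control libraries, given here and below in the order of the replicates, and 181, 159, 162, 113 and 151 in the tunicamycin libraries. The groups did not overlap, and BRCA1 fell to 50.4% of control (log2 fold change -0.99, SE 0.12, adjusted p = 2.21e-06). BRCA2, which loads the recombinase, had 298, 347, 305, 275 and 295 normalized counts in control libraries and 157, 119, 102, 82.4 and 109 in tunicamycin libraries. It fell further, to 38.0% of control (log2 fold change -1.40, SE 0.14, adjusted p = 2.6e-07), again without overlap. BARD1, the obligate partner of BRCA1, went from 211, 211, 199, 171 and 167 to 109, 116, 123, 104 and 94.8 normalized counts (log2 fold change -0.80, SE 0.12, adjusted p = 2.96e-05), and each of the 3 genes fell in 5 of 5 replicate pairs.

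PALB2, the protein that bridges BRCA1 and BRCA2, had 35.3, 54.4, 49.0, 42.1 and 48.8 normalized counts in control and 35.5, 67.5, 50.1, 57.7 and 66.6 in tunicamycin libraries. The groups overlapped, and the log2 fold change of 0.25 was not called (95% interval -0.13 to 0.62, adjusted p = 0.347). The interval lies above the estimates for BRCA1, BRCA2 and BARD1, although the difference between genes was not tested. On GRCh38, BRCA1 lies on chromosome 17 from 43044295 to 43170245 on the minus strand, BRCA2 on chromosome 13 from 32315086 to 32400268 on the plus strand and PALB2 on chromosome 16 from 23603160 to 23641321 on the minus strand. None of the last 500 exonic bases of these genes, from which 3′ reads come, overlaps an exon of another gene.

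Among genes of strand exchange and its remodelling, RAD51AP1, XRCC2 and XRCC3 fell and both RAD54 genes were not called. RAD51AP1, which stimulates strand invasion, had 187, 248, 252, 241 and 224 normalized counts in control and 123, 112, 126, 117 and 101 in tunicamycin libraries, a log2 fold change of -0.98 (SE 0.11, adjusted p = 2.06e-06). XRCC2, a recombinase paralog, had 103, 111, 105, 86.01 and 98.6 in control and 30.4, 54.6, 40.6, 23.4 and 50.4 in tunicamycin libraries. Its log2 fold change was -1.35 (SE 0.19, adjusted p = 1.64e-05), and tunicamycin replicates 1 and 4 were the lowest. XRCC3, a paralog of another complex, had 97.3, 74.9, 65.6, 60.9 and 65.1 in control and 27.0, 23.8, 33.1, 41.2 and 54.5 in tunicamycin libraries, a log2 fold change of -1.09 (SE 0.21, adjusted p = 0.000479). The fall of XRCC3 was uneven, with log2 ratios between -1.83 and -0.25 in the 5 pairs.

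RAD54L, a motor protein that works with the recombinase on chromatin, had 4.30, 4.46, 25.4, 33.2 and 21.3 normalized counts in control and 11.8, 18.9, 17.9, 34.3 and 30.3 in tunicamycin libraries. Control replicates 1 and 2 stood far below the other 3, the groups overlapped, and the log2 fold change of 0.28 had a standard error of 0.45 (adjusted p = 0.666). Exons of LRRC41, on the opposite strand, overlap the last 500 exonic bases of RAD54L. LRRC41 itself had 53.4, 99.9, 139, 165 and 142.3 normalized counts in control and 182, 285, 220.1, 378 and 315 in tunicamycin libraries and rose by 1.19 on the log2 scale (adjusted p = 0.000498). Whether counting used the strand is not given in the sources used here, and the part of LRRC41 reads in the RAD54L counts was not tested. RAD54B, the related motor protein on chromosome 8, had 6.89, 5.35, 0.875, 6.27 and 10.2 normalized counts in control and 1.69, 4.96, 0.945, 2.75 and 4.04 in tunicamycin libraries, so that its log2 fold change of -1.07 (95% interval -2.25 to 0.11, adjusted p = 0.181) was not detectable as a change at this depth.

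The enzymes that resect DNA ends and dissolve joint molecules fell in 3 of 4 cases. EXO1, the exonuclease that lengthens resected ends and also acts in mismatch repair, had 40.5, 55.3, 28.9, 58.2 and 37.6 normalized counts in control and 14.4, 10.9, 2.83, 12.4 and 16.1 in tunicamycin libraries. It fell 4.03-fold (log2 fold change -2.01, SE 0.31, adjusted p = 6.43e-05), with the lowest value in tunicamycin replicate 3. BLM, the helicase that dissolves double Holliday junctions, had 92.1, 76.7, 77.9, 67.2 and 74.2 in control and 31.3, 31.8, 30.2, 35.7 and 12.1 in tunicamycin libraries. The groups did not overlap (log2 fold change -1.40, SE 0.19, adjusted p = 1.49e-05), and tunicamycin replicate 5, the shallowest library, stood lowest. Without that library the log2 fold change of BLM was -1.27.

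RMI1 and RMI2 are the OB-fold partners of BLM, and of the pair RMI2 was called; the difference between them was not tested. RMI2 had 74.0, 107, 107, 115 and 122 normalized counts in control and 39.7, 39.7, 50.1, 65.9 and 60.5 in tunicamycin libraries, without overlap, and fell by 1.07 on the log2 scale (SE 0.18, adjusted p = 0.000113). RMI1 had 23.2, 32.99, 54.2, 52.9 and 49.8 in control and 29.6, 31.8, 41.6, 63.2 and 60.5 in tunicamycin libraries. Its replicates 1 and 2 were low in both conditions, its log2 fold change was 0.04 (95% interval -0.47 to 0.54, adjusted p = 0.931), and the sign turned with library size as the only scaling (-0.05) and in 4 of the 10 fits that left out 1 library. On GRCh38, EXO1 lies on chromosome 1 from 241847967 to 241895148 on the plus strand and BLM on chromosome 15 from 90717346 to 90816166 on the plus strand.

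**Figure D2:**
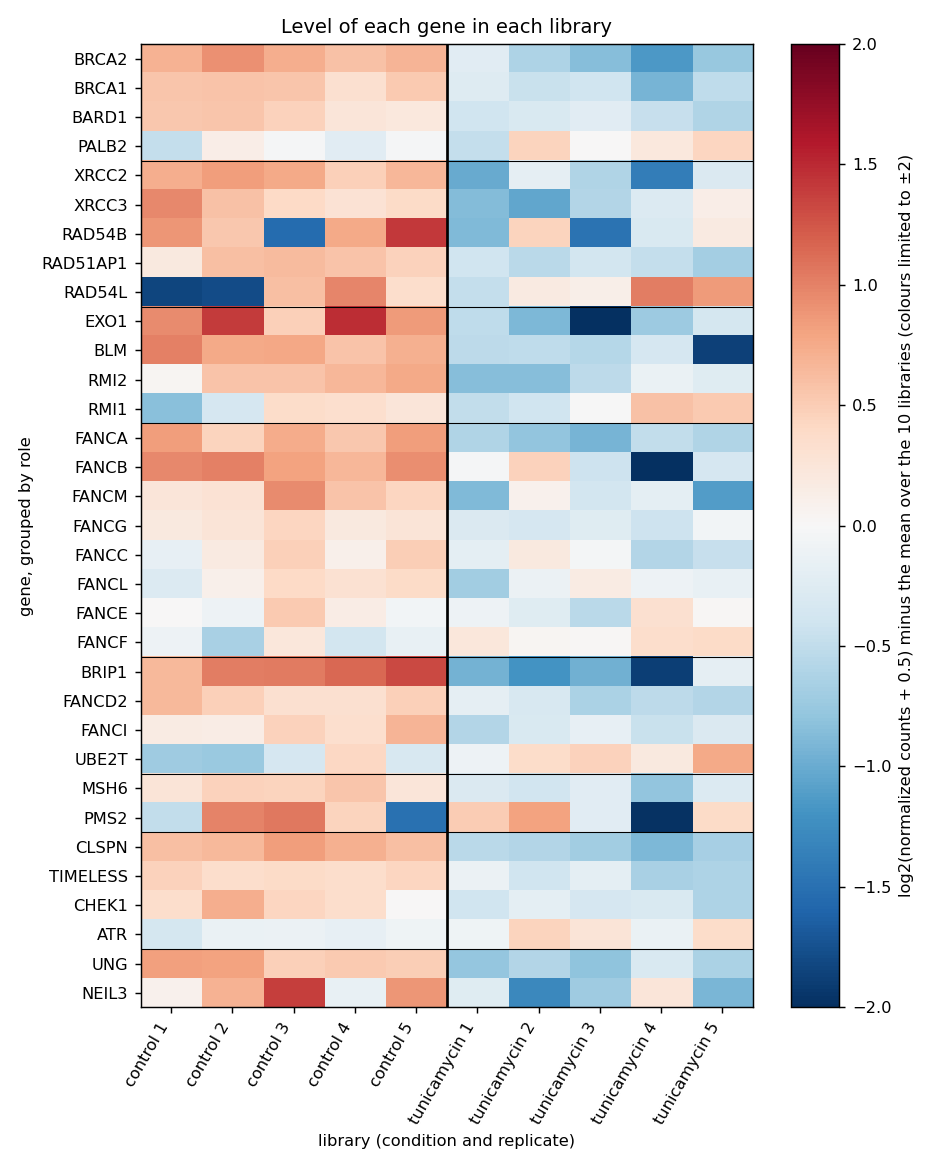
Level of each of the 33 genes in each of the 10 libraries, as log2 of normalized counts plus 0.5 minus the mean of that gene over the libraries, with genes grouped by role and the conditions split by a line. Most rows turn from red in the control libraries to blue in the tunicamycin libraries, while rows such as those of PALB2, RAD54L, RMI1, FANCF, UBE2T and ATR do not; colours are limited to ±2.

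The Fanconi core complex was split. Of its 8 genes, 4 fell and 4 were not called. FANCA, a scaffold subunit, had 221, 169, 206, 180.1 and 221 normalized counts in control and 81.1, 71.4, 64.2, 87.9 and 80.7 in tunicamycin libraries, which did not overlap. It fell to 38.4% of control (log2 fold change -1.38, SE 0.13, adjusted p = 1.09e-07). FANCG, which binds FANCA directly, had 81.8, 85.6, 96.2, 81.5 and 85.4 in control and 58.3, 56.6, 60.5, 53.6 and 68.6 in tunicamycin libraries, a smaller fall of 0.54 on the log2 scale (SE 0.13, adjusted p = 0.00369). FANCM, the translocase that anchors the complex to DNA, had 31.8, 32.99, 52.5, 40.3 and 36.6 in control and 14.4, 28.8, 20.8, 23.4 and 12.1 in tunicamycin libraries, with a log2 fold change of -0.94 (SE 0.24, adjusted p = 0.0054).

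FANCB, which supports the catalytic subunit FANCL, was a low-count gene with 15.5, 16.1, 14.0, 12.5 and 15.2 normalized counts in control and 7.601, 10.9, 5.67, 0 and 6.05 in tunicamycin libraries. The library at 0, tunicamycin replicate 4, allows up to 3 counts. The log2 fold change was -1.19 (SE 0.42, adjusted p = 0.0336), and the call was lost without control replicate 1, 2, 3 or 5 (adjusted p = 0.0525, 0.0656, 0.0531 and 0.0577) and without tunicamycin replicate 3 or 5 (0.0693 and 0.0535). FANCL, the ubiquitin ligase itself, had 99.8, 129, 160.1, 149 and 159 normalized counts in control and 74.3, 111, 135, 113 and 109 in tunicamycin libraries. It was lower in 5 of 5 pairs, but the groups overlapped and the log2 fold change of -0.36 was not called (adjusted p = 0.0867). With the replicate block, which compares libraries of the same day, the adjusted p was 0.0197, and it was also under 0.05 without control replicate 1 (0.0194) or tunicamycin replicate 3 (0.0447).

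The other core genes did not pass the test. FANCC had 22.4, 28.5, 35.0, 26.9 and 35.6 normalized counts in control and 21.96, 28.8, 24.6, 16.5 and 18.2 in tunicamycin libraries (log2 fold change -0.39, adjusted p = 0.19). FANCE, which links the complex to FANCD2, had 31.8, 29.4, 45.5, 34.9 and 30.5 in control and 29.6, 26.8, 21.7, 39.8 and 32.3 in tunicamycin libraries (log2 fold change -0.22, adjusted p = 0.443). FANCF, an adaptor encoded by a single exon, had 43.0, 29.4, 54.2, 35.8 and 41.7 in control and 54.1, 47.6, 47.2, 59.1 and 60.5 in tunicamycin libraries. Its estimate was above 0 (log2 fold change 0.38, approximate 95% interval 0.02 to 0.73), but the unadjusted p was 0.0514 (adjusted p = 0.118). FANCF was called only without control replicate 3, its highest control value (adjusted p = 0.0453). Exons of ZNF276 and VRK2 on the opposite strand overlap the last 500 exonic bases of FANCA and FANCL. ZNF276 and VRK2 had log2 fold changes of -0.21 and 0.02 and were not called (adjusted p = 0.328 and 0.937). The last bases of FANCG also overlap, on the same strand, a gene that is annotated in GENCODE without a symbol. That gene is not in the count table, and the part of its reads in the FANCG counts was not tested.

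The substrates of the core complex fell, while the conjugating enzyme rose. FANCD2 had 253, 225, 200.4, 201 and 224 normalized counts in control and 141.9, 128, 104, 111 and 107 in tunicamycin libraries, and FANCI, its partner in the ubiquitinated clamp, had 136, 134, 168, 153 and 194 in control and 80.2, 98.2, 109, 89.3 and 98.9 in tunicamycin libraries. The groups did not overlap for either gene, with log2 fold changes of -0.89 (SE 0.12, adjusted p = 1.07e-05) and -0.72 (SE 0.13, adjusted p = 0.000329). BRIP1, the helicase FANCJ that binds BRCA1, had 90.4, 117, 118, 128 and 143 in control and 29.6, 24.8, 29.3, 15.1 and 50.4 in tunicamycin libraries. It fell 4.13-fold, the most of all 33 genes (log2 fold change -2.05, SE 0.21, adjusted p = 4.16e-07), and over the 18 alternative fits its log2 fold change lay between -2.23 and -1.90. BRIP1 lies on chromosome 17 from 61679139 to 61863559 on the minus strand of GRCh38. POLG, whose exons on the opposite strand overlap the last 500 exonic bases of FANCI, was not called (adjusted p = 0.633).

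UBE2T had 54.2, 53.5, 70.9, 119 and 71.2 normalized counts in control and 83.6, 116, 124, 103 and 151 in tunicamycin libraries. Control replicate 4 stood far above the other control libraries and above its own paired tunicamycin library, so that the groups overlapped and 4 of 5 pairs were higher. The log2 fold change was 0.63 (SE 0.20, adjusted p = 0.0224). The call was lost without control replicate 1 or 2 (adjusted p = 0.0514 and 0.0673) and without tunicamycin replicate 3 or 5 (0.0549 and 0.0643), and without control replicate 4 the estimate was 0.88 (adjusted p = 0.000876). UBE2T lies on chromosome 1 from 202331544 to 202341984 on the minus strand of GRCh38, and no exon of another gene overlaps it.

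MSH6, which recognizes single mismatches, had 422, 486, 481, 519 and 418 normalized counts in control and 289, 271, 300.4, 203 and 293 in tunicamycin libraries and fell by 0.78 on the log2 scale (SE 0.11, adjusted p = 1.83e-05). The groups did not overlap, and tunicamycin replicate 4 was the lowest. PMS2, an endonuclease subunit of mismatch repair, had 8.61, 25.0, 26.2, 17.0 and 4.07 in control and 17.7, 21.8, 10.4, 2.75 and 16.1 in tunicamycin libraries. Its libraries spread over a wide range in both conditions, and its log2 fold change of -0.21 was not called (95% interval -1.09 to 0.66, adjusted p = 0.746). PMS2 has near-identical pseudogene copies, among which reads can be split, so that its counts are uncertain. FBXO11, whose exons on the opposite strand overlap the 3′ end of MSH6, had a log2 fold change of -0.07 (adjusted p = 0.667).

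In the replication checkpoint 3 of 4 genes fell, and the kinase ATR was not called. CLSPN, the adaptor through which ATR activates CHEK1, had 379, 391, 444, 408 and 380.2 normalized counts in control and 171, 167, 155, 133 and 157 in tunicamycin libraries. It had the smallest adjusted p of the 33 genes (4.5e-09; log2 fold change -1.35, SE 0.10). CHEK1, the effector kinase, had 119.6, 154, 126, 119 and 93.5 in control and 70.9, 81.4, 73.7, 75.6 and 60.5 in tunicamycin libraries, and TIMELESS, which holds helicase and polymerase together at the fork, had 225, 209, 213, 209 and 221 in control and 150.3, 124, 143, 104 and 107 in tunicamycin libraries. Both fell without overlap, with log2 fold changes of -0.75 (SE 0.14, adjusted p = 0.000479) and -0.76 (SE 0.12, adjusted p = 4.99e-05).

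ATR had 69.7, 81.1, 82.2, 78.8 and 83.3 normalized counts in control and 83.6, 121, 106, 81.1 and 115 in tunicamycin libraries, higher in 5 of 5 pairs but with overlap between the groups. The log2 fold change of 0.35 was not called (SE 0.14, 95% interval 0.08 to 0.63, adjusted p = 0.0612). With the replicate block it passed the threshold (adjusted p = 0.0449), as it did without tunicamycin replicate 1 (0.0295) or tunicamycin replicate 4 (0.0302). None of the 18 alternative fits gave ATR a negative estimate. ATR lies on chromosome 3 from 142449007 to 142578733 on the minus strand of GRCh38, and CHEK1 on chromosome 11 from 125625163 to 125676255 on the plus strand.

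The 2 DNA glycosylases fell. UNG, which removes uracil from DNA, had 473, 468, 374, 387 and 377 normalized counts in control and 157, 179, 154, 217 and 174 in tunicamycin libraries and fell to 42.1% of control (log2 fold change -1.25, SE 0.11, adjusted p = 9.66e-08). NEIL3, which acts on oxidized bases and unhooks crosslinks at forks, had 8.61, 13.4, 21.9, 7.17 and 15.2 in control and 6.76, 2.98, 4.72, 9.62 and 4.04 in tunicamycin libraries. The groups of NEIL3 overlapped, and its log2 fold change of -1.22 (SE 0.42, adjusted p = 0.0296) rests on few counts. The call was lost without control replicate 2, 3 or 5 (adjusted p = 0.051, 0.105 and 0.0583), without tunicamycin replicate 2, 3 or 5 (0.0819, 0.0675 and 0.0562) and with every library thinned to 2234682 counts (0.21).

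**Figure D3:**
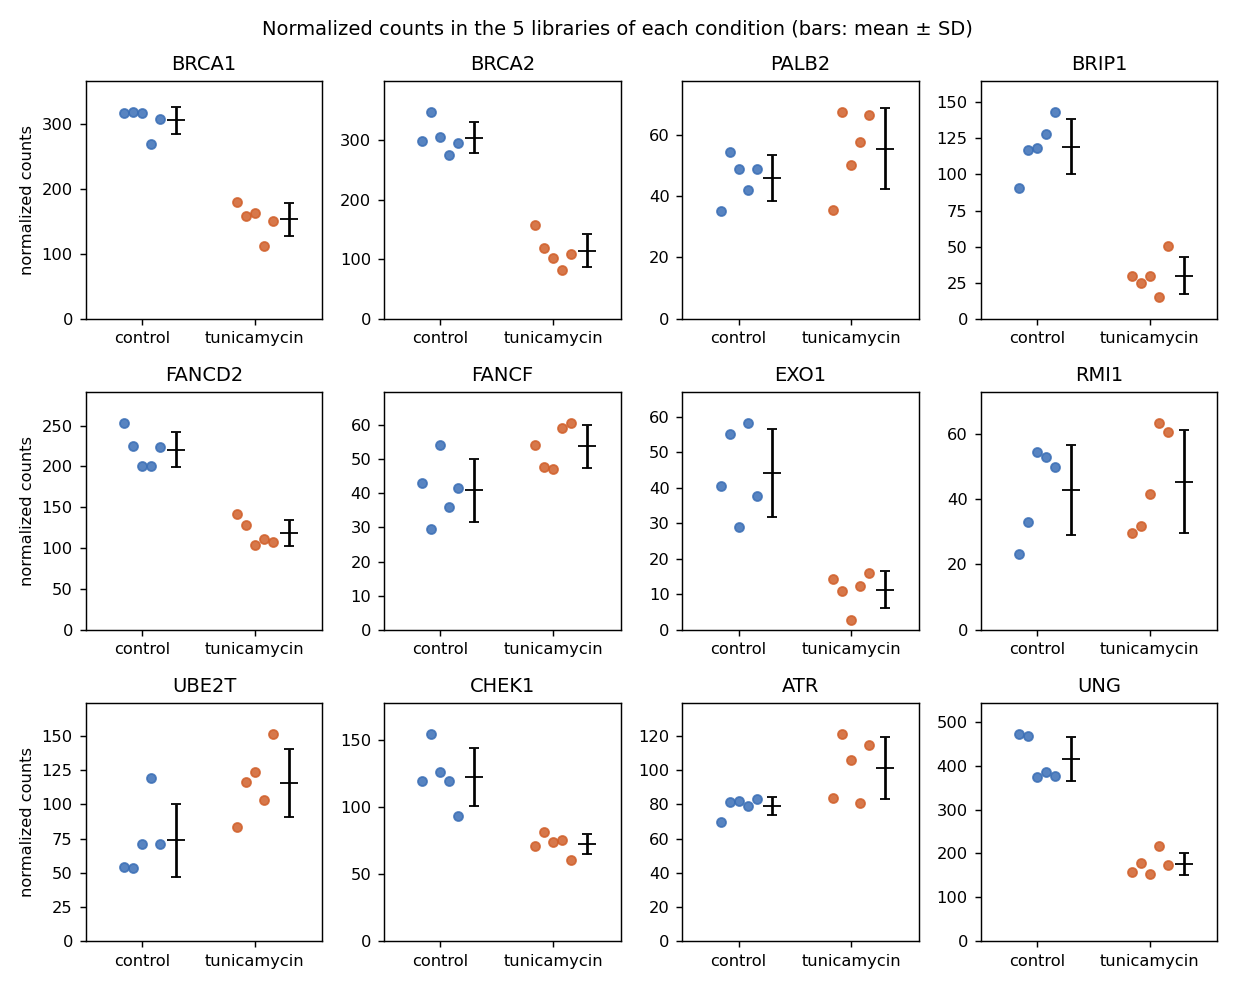
Normalized counts of 12 of the 33 genes in the 5 control (blue) and 5 tunicamycin (orange) libraries, with the mean and SD beside the points and every axis starting at 0. BRCA1, BRCA2, BRIP1, FANCD2, EXO1, CHEK1 and UNG show no overlap between the conditions, whereas PALB2, FANCF, RMI1, UBE2T and ATR do.

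The promoters of these genes were searched for short motifs that are known from cell cycle and stress genes. RefSeq promoter windows of 300 bases (250 before and 50 after a transcription start, GRCh38.p14) were found for 30 of the 33 genes, and both strands were searched without regard to overlap between motifs. The letters of an E2F-type site were TTTCGCGC, with TTTGGCGC, TTTCCCGC and TTTGCCGC as the other forms. A cell cycle homology region (CHR) was TTTGAA and also TTCGAA. For the CCAAT box its own letters were searched, and the element bound by ATF4 with C/EBP factors was TGATGNAA. E2F-type letters occurred in 10 of the 30 genes, against 3.99% of all genes with a window and 6.76% of the 9230 tested protein-coding genes with one. Of the 20 genes with a window that fell, 7 held them (EXO1, CLSPN, FANCA, FANCD2, MSH6, UNG and XRCC2), as did 3 of the other 10 (FANCC, PMS2 and RMI1). CCAAT occurred in 19 of 30 genes (43.9% of tested protein-coding genes), CHR letters in 5 of 30 (15.8%) and the letters of the ATF4 element in 0 of 30 (2.69%). Of the 20 genes that fell, 13 held CCAAT and 3 held CHR letters, as did 6 and 2 of the other 10. A match describes letters in a window and not a bound site.

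The stretches shown next are examples and do not tie a motif to a direction. CLSPN, FANCA and UNG also hold CCAAT, and FANCC, PMS2 and RMI1, which were not called, hold E2F-type letters. The stretches of 30 bases surround E2F-type letters in 5 genes that fell, and CHR letters and a CCAAT box of UBE2T, which rose. They are written 5′ to 3′ along the gene, with the matched letters in capitals, and lie at chr1:241848197-241848226 (EXO1, plus strand), chr1:35769965-35769994 (CLSPN, minus strand), chr3:10026424-10026453 (FANCD2, plus strand), chr16:89816801-89816830 (FANCA, minus strand), chr12:109098098-109098127 (UNG, plus strand) and, on the minus strand, chr1:202342072-202342101 and chr1:202341992-202342021 (UBE2T) of GRCh38.p14.
EXO1: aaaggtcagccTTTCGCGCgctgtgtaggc
CLSPN: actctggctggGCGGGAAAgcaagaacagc
FANCD2: cgtcgggcctgGCGGGAAAgtcgaaaacta
FANCA: actacaccgcgGCGGCAAAgccaaacgcaa
UNG: gagggaggtttTTTGCCGCgaaaagaccac
UBE2T, CHR: cgcgcgctctcaTTTGAAtgcgtgagcgtt
UBE2T, CCAAT: gattactgtgggCCAATcacaatcttcccc
CLSPN and FANCD2 carry the same 8 letters, GCGGGAAA, the reverse complement of TTTCCCGC, directly across the transcription start, and EXO1 carries TTTCGCGC just after it. BRCA1, BRCA2 and BRIP1, which fell, and ATR and PALB2, which did not, had no E2F-type letters in their windows. Among all tested protein-coding genes with a window, the letters occurred in 9.59% of those called lower and 5.65% of those called higher. A relation between the letters and the direction of change was not tested.

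Genes of the same and of other repair pathways that are not among the 33 were read from 7 lists. Of 113 tested genes in these lists, 38 fell and 11 rose (33.6% lower), with a median log2 fold change of -0.21. Over all tested genes, 16.6% fell and 17.6% rose, and the counts of each list below are to be read beside these shares. The remaining recombination genes fell in 7 of 26 cases and rose in 1, with a median of -0.28. MMS22L, which protects stalled forks, went from 127 ± 11.2 to 42.7 ± 13.3 normalized counts (SD, n = 5 each; log2 fold change -1.55, adjusted p = 1.66e-06), and the nuclease subunit EME1 from 47.5 ± 4.67 to 18.3 ± 6.08 (log2 fold change -1.35, adjusted p = 0.000112). The gene that rose was MUS81, from 51.2 ± 20.6 to 113 ± 23.6 normalized counts, with overlap between the groups (log2 fold change 1.13, adjusted p = 0.000747). The remaining Fanconi genes fell in 5 of 14 cases, with a median of -0.25. The nuclease scaffold SLX4 had a log2 fold change of -0.77 (adjusted p = 0.00552), and USP1, which removes ubiquitin from FANCD2, of -0.44 (adjusted p = 0.00165).

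The mismatch repair list, which includes clamp, clamp loader, ligase and polymerase genes shared with replication, fell in 11 of 13 cases, with a median of -0.80. DNA ligase LIG1 went from 179 ± 37.5 to 61.1 ± 5.95 normalized counts (SD, n = 5 each; log2 fold change -1.55, adjusted p = 2.28e-07), and the clamp loader subunit RFC4 from 146 ± 14.2 to 60.8 ± 5.30 (log2 fold change -1.26, adjusted p = 3.3e-07). The remaining checkpoint genes fell in 6 of 13 cases and rose in 1 (median -0.38). Among those that fell were TOPBP1, the activator of ATR, at -0.83 (adjusted p = 2.56e-05), and ATRIP, the partner of ATR, at -1.06 (SE 0.34, adjusted p = 0.0225). ATRIP had low counts, 28.2 ± 3.83 normalized counts in control libraries (SD, n = 5). Its tunicamycin libraries were uneven, with 20.3, 21.8, 12.3, 2.75 and 4.04 normalized counts in the order of the replicates. Base excision repair fell in 6 of 18 cases and rose in 1 (median -0.16), and the gene that rose was the endonuclease APEX1, from 167 ± 40.7 to 504 ± 269 normalized counts (log2 fold change 1.57, adjusted p = 0.000207). The groups of APEX1 overlapped, and its tunicamycin libraries had 221, 360, 359, 833 and 749 normalized counts in the order of the replicates.

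Nucleotide excision repair and end joining had other counts. In nucleotide excision repair 7 of 18 tested genes rose and 2 fell, with a median log2 fold change of 0.21. The TFIIH subunits GTF2H1 and GTF2H2 rose by 1.03 and 1.20 on the log2 scale (adjusted p = 6.8e-06 and 0.000617), while DDB2, which recognizes UV damage, had a log2 fold change of -1.72 (adjusted p = 2.25e-07). In end joining 1 of 11 rose, LIG4 at 0.91 (adjusted p = 0.0187), and 1 fell, RIF1 at -0.50 (adjusted p = 0.000783), with a median of -0.01. The differences between lists were not tested.

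**Figure D4:**
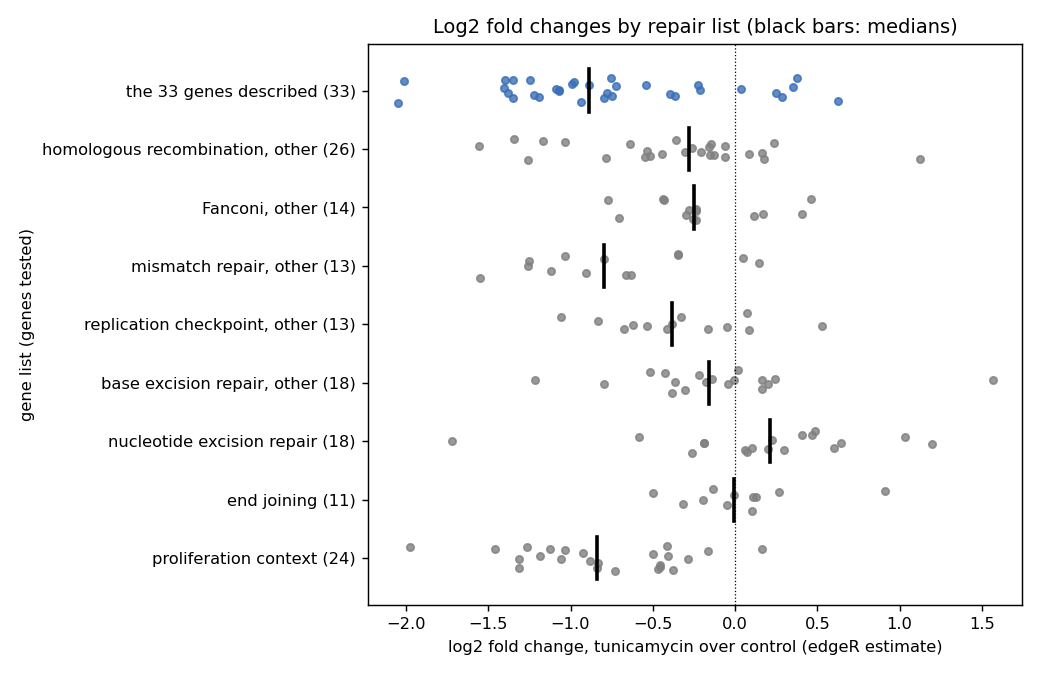
Log2 fold changes, tunicamycin over control, of the 33 genes and of the tested genes of 7 other repair lists and the proliferation context, 1 point per gene with the list's median as a bar. The medians of the 33 genes (-0.89), the remaining mismatch repair genes (-0.80) and the proliferation context (-0.84) lie to the left of those of nucleotide excision repair (0.21) and end joining (-0.01).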

How the data were processed

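Total RNA of HepG2 cells was sequenced with the QuantSeq 3′ mRNA method (FWD), 5 libraries per condition. The authors ran the nf-core pipeline for RNA-Seq at its defaults on hg19 and Ensembl transcripts, and deposited raw counts per gene; the counting program and strand setting are not given in the sources used here. All sample columns were used and matched to libraries by name. Genes were filtered with filterByExpr by condition (minimum count 2, minimum total 10), scaled by TMM and tested with edgeR 4.0.16 (R 4.3.3), with glmQLFit and glmQLFTest, condition as the only term and Benjamini-Hochberg adjustment over all 12733 genes. For normalized counts, each count was divided by its library's scaled size and multiplied by the mean scaled size. The standard error is the absolute log2 fold change divided by the square root of F, 95% intervals are the estimate ± 1.96 standard errors, and pair ratios used a pseudocount of 0.5. The factor 1.96 is that of a normal distribution, so these intervals are approximate and somewhat narrower than the F test implies. The series text places the 5 replicates on separate days, which pairs the numbers; same-numbered libraries deviated from their group means with correlations of 0.361, 0.0153, 0.0674, 0.165 and 0.145 for replicates 1 to 5 (9707 genes).

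The genes and lists were chosen with earlier results of these data known. Every one of the 33 genes is accounted for. Values per library are given for called genes averaging 20 or more normalized counts, any gene called against the majority, genes with an adjusted p of 0.05 to 0.10 and the gene with the largest adjusted p of each role; those of FANCB, FANCC, FANCF and RAD54B were added after their values were seen. Up to 3 called genes with the largest changes are named per other list, and XBP1 and MUS81 were added after their values were seen. Positions and exon overlaps come from GENCODE release 44 on GRCh38, matched by Ensembl identifier for all 33 genes, and no hg19 coordinate is given. In counts simulated at the observed means and depths (12557 genes), the test called 89.6% of 106 genes changed 2-fold and 100% of 94 changed 4-fold. It also called 13 unchanged genes. The changed genes were drawn only from those averaging 20 or more raw counts per library. These shares therefore do not cover genes with fewer counts, such as RAD54B, FANCB and NEIL3. The changed genes were also a far smaller share than the 34.2% called in the data. The adjustment was thus stricter in the simulation, and its shares do not carry over directly. Alternatives were DESeq2 1.42.0, its size factors, library size only, no filter, the default filter minimums (10 and 15), the replicate block, thinning to 2234682 counts, removal of mitochondrial genes and leaving out each library. Results for some genes of the lists are not reported here.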

Additional observations from a re-analysis of the deposited data

Results flagged for a closer look

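In 4 of 70 groups of 5 values (normalized counts of each gene in each condition, library totals and mitochondrial shares), 1 library lay far from the other 4 by Dixon's criterion, where chance gives about 3.5. BRCA1 had 269.7 normalized counts in control replicate 4, against 309 to 319 in the other control libraries. BLM had 12.1 in tunicamycin replicate 5, against 30.2 to 35.7. FANCG had 96.2 in control replicate 3, against 81.5 to 85.6. UBE2T had 119 in control replicate 4, against 53.5 to 71.2. Of these genes, the call of UBE2T was the only one that a fit without 1 library removed, and without its outlying library UBE2T had a log2 fold change of 0.88 in place of 0.63.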

How the results depend on the processing

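The number of the 33 genes called lower was 22 and lay between 20 and 23 over the 18 alternatives; DESeq2 gave 22 lower and 1 higher. Of the 22 genes, 20 kept their direction and their call in every alternative, the others being FANCB and NEIL3, which have few counts. The number called higher, 1, was 2 with the replicate block and 0 to 2 when 1 library was left out. The replicate block added ATR and FANCL and changed no other call among the 33 genes. The median log2 fold change of -0.89 was -0.78 after thinning to the smallest library. Estimates near 0 changed sign for RMI1 (-0.054 with library size only, -0.13 to 0.17 when 1 library was left out) and PMS2 (-0.45 to 0.028 when 1 library was left out). Scaling by library size alone shifted the median of all tested genes from -0.0033 to -0.08 and the share of higher calls from 51.4% to 40.8%, and it added FANCL to the lower genes (adjusted p = 0.0306). Thinning removed the calls of FANCB (adjusted p = 0.0679) and NEIL3 (0.21), and the default filter minimums left RAD54B and NEIL3 untested. FANCB, NEIL3 and RAD54B had at most 25 counts in any library. PMS2 and RAD54L varied between control libraries of similar depth, with coefficients of variation of 60.5% and 72.8%.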
